A study of Mus musculus with 24 samples.

Results

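The makorin genes Mkrn1, Mkrn2 and Mkrn3 were followed through every library of a study of the mouse GT1-7 line, by taking the rows that carry these 3 gene names from both count tables, 3 of 57010 gene rows in each. GT1-7 is an immortalised hypothalamic line that makes gonadotropin-releasing hormone (GnRH), the peptide that drives the reproductive axis. One experiment, called fractionation here, measured total and cytoplasmic RNA of wt cells and of cells labelled Mkrn3ox, which per the series' design carry a stable GFP-Mkrn3. The other, RNA immunoprecipitation (RIP), used transfected cells, with 6 µg of plasmid left on for 24 h that encoded either GFP or GFP-Mkrn3. From each lysate 5% was kept as input, and the rest went onto beads that hold GFP (GFP-trap), from which the bound RNA was taken as the IP. There were 8 groups of 3 libraries, 24 libraries in all: wt total, wt cytoplasmic, Mkrn3ox total, Mkrn3ox cytoplasmic, GFP input, GFP IP, GFP-Mkrn3 input and GFP-Mkrn3 IP. The control of the stable line was unmodified cells without GFP, whereas the control of the plasmid carried GFP, so the stable line's comparisons hold the tag and the makorin together. The labels do not say whether Mkrn3ox is 1 clone, which promoter drives GFP-Mkrn3, or whether the 3 libraries per group were grown as separate cultures, so p-values measure only the spread between these libraries, which may be technical.

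Makorins are a small family of proteins that join C3H zinc fingers, which bind RNA, with a RING finger, which transfers ubiquitin onto other proteins. MKRN1 is known as a ubiquitin ligase that also binds poly(A)-binding protein and acts on ribosomes stalled at poly(A) stretches, and MKRN2 is a related ligase that also binds RNA. MKRN3 comes from an intronless, maternally imprinted gene, its loss in people leads to central precocious puberty, and it is known as a brake on the GnRH axis.

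The members lie on 2 chromosomes (GRCm38.p6 positions). Mkrn1 (ENSMUSG00000029922) spans 39397804 to 39423299 on chromosome 6, and Mkrn2 (ENSMUSG00000000439) spans 115601883 to 115621683 on the same chromosome. Mkrn3 (ENSMUSG00000070527) spans 2561 bases, from 62417593 to 62420153 on chromosome 7. Counts of rows that overlap a member or carry a related name could mix with theirs. The predicted gene Gm32061 spans Mkrn3 from end to end, and Gm10244 and Gm25402 lie inside Mkrn1. The rows given here were nearly empty: Gm10244 held 3 counts in the fractionation table and 31 in the RIP table, Gm25402 held 0 in both, Gm32061 held 4 and 0, and the pseudogene Mkrn1-ps1 held 0 and 1. No source used here states whether counting used strand, so reads that fall where genes overlap cannot be told apart. In the tables as deposited, the Mkrn1 row held 40 counts in the fractionation and 5542 in the RIP, the Mkrn2 row 924 and 5856, and the Mkrn3 row 7 and 425638.

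Library depth differed between the experiments. Fractionation libraries held 374386 to 759271 counts and RIP libraries 6254703 to 14575652. Levels are CPM, counts relative to library size after edgeR's TMM correction for composition, and differences are log2 fold changes with their SE. Tests are edgeR quasi-likelihood F tests, whose p-values were adjusted by Benjamini-Hochberg over 5033 fractionation and 13052 RIP genes, and a gene is called where the adjusted p is below 0.05. The GFP-Mkrn3 IP libraries 2 and 3 were the least alike pair of the RIP. Their chi-square per degree of freedom was 30.3, against 2.83 to 10.9 for the other pairs. This measure grows with depth, and library 2 was the deepest (14575652 counts). Paired with library 1, library 2 gave 10.9 and library 3 gave 8.36, so library 2 is not singled out. The ratio differences of Mkrn1 and Mkrn3, and the differences of Mkrn1 and Mkrn2 between the IPs, are also given without library 2. Values of other genes are given with all libraries only. Scaling matters here: with library size alone the split of called genes became 4104 higher and 1154 lower in place of 2661 and 2246 between the IPs, 2554 and 3952 in place of 3274 and 3291 for IP over input with GFP, 2599 and 1263 in place of 1812 and 1675 with GFP-Mkrn3, and 2845 and 603 in place of 1724 and 1454 for the difference between those ratios. For Mkrn3ox against wt it became 252 higher and 163 lower in place of 179 and 193 in total RNA, 507 and 189 in place of 217 and 309 in cytoplasmic RNA, and 8 and 6 in place of 4 and 7 in the ratio. A marker is called detected where its summed count in a group is above 0, so a single read is enough. Of 7 markers of a GnRH neuronal line, 5 or 6 were detected in each group, while Snap25 was at 0 in all 4 RIP groups and Stmn2 in 3 of them. Their summed level was 357 to 439 CPM in the RIP inputs, 151 to 168 in the GFP IP and 262 to 303 in the GFP-Mkrn3 IP. Gnrh1 was the main part of the input sums, with means of 313 CPM with GFP and 319 with GFP-Mkrn3. Its means were 83.8 CPM in the GFP IP and 209 in the GFP-Mkrn3 IP. In the fractionation it was 90.1 to 133 CPM in wt total, 106 to 222 in wt cytoplasmic, 208 to 300.2 in Mkrn3ox total and 383 to 429 in Mkrn3ox cytoplasmic RNA. Of 8 glial markers 2 to 4 were detected in each group, Mog, Olig2 and Slc1a3 were at 0 in all 8 groups, and the sum was at most 24.0 CPM in the RIP and 37.6 in the fractionation. Of 8 markers of fibroblasts, endothelium and immune cells 4 to 6 were detected in the RIP groups, with Ptprc at 0 in all of them, and the sum was 27.8 to 41.6 CPM in both inputs, 53.4 to 64.1 in the GFP IP and 39.8 to 45.9 in the GFP-Mkrn3 IP. In the fractionation 1 or 2 were detected, Aif1, Cd68, Cdh5, Col3a1 and Pecam1 were at 0, and the sum was 0 to 19.1 CPM in wt and 22.1 to 91.5 in Mkrn3ox. These sums moved with the line and with the IP, and their part in the results was not tested.

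Mkrn3 is the gene carried by the GFP-Mkrn3 plasmid, and its row followed the plasmid labels. The GFP inputs held 60, 52 and 36 Mkrn3 counts (8.61, 6.01 and 3.97 CPM), and the GFP-Mkrn3 inputs held 28366, 28280 and 32451 (3602, 3728 and 3733 CPM). All 3 libraries of the second group lay far above all 3 of the first. In the IPs the GFP libraries held 57, 60 and 33 counts (7.32, 7.36 and 5.60 CPM) and the GFP-Mkrn3 libraries 108096, 141568 and 86579 (9832, 9067 and 9726 CPM). The 6 GFP libraries together held 298 counts, 0.0700% of all Mkrn3 counts in the RIP table. No GFP library was at 0, and a floor of 3 counts in a group corresponds to 0.121 CPM in the GFP inputs and 0.137 in the GFP IP. Whether those counts came from the chromosomal gene was not tested, and reads of the plasmid and of the chromosomal gene cannot be told apart in a gene-level count.

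**Figure D1:**
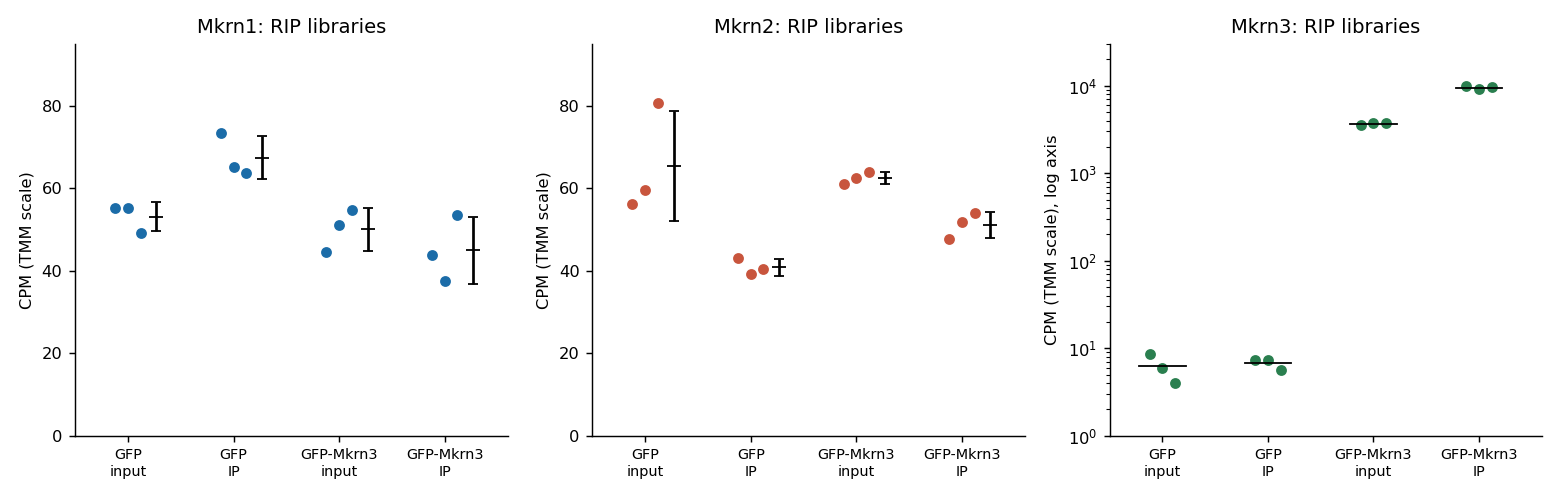
Levels of Mkrn1, Mkrn2 and Mkrn3 in the 12 RIP libraries, in CPM on the TMM scale (log axis for Mkrn3). Points are libraries, drawn in order of their number. Bars show the mean ± SD, and lines on the Mkrn3 panel show the mean. Mkrn3 lies at 3.97 to 8.61 CPM with GFP and at 3602 to 9832 with GFP-Mkrn3, whereas Mkrn1 and Mkrn2 stay between 37.6 and 80.7 CPM.

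Between inputs, GFP-Mkrn3 cells exceeded GFP cells in Mkrn3 by 9.25 (log2, SE 0.169, 608-fold, edgeR adjusted p = 4.41e-18), the largest rise of 13052 tested genes. Mkrn3 was the 1 makorin of 3 called, beside 0.0153% of all genes. The plasmid carries it, so this call follows from the design and is no result about the family. Only 2 genes passed in all, the other being Gm25395, named here after its values were seen, which was at 7.31 CPM with GFP-Mkrn3 and 15.8 with GFP (log2 -1.11, adjusted p = 0.0431). In the GFP-Mkrn3 inputs the Mkrn3 row alone took 0.359 to 0.373% of all counts. Mkrn3 levels were even across those 3 inputs, at 3688 ± 74.2 CPM (SD, n = 3), compared with 6.20 ± 2.33 in the GFP inputs (SD, n = 3).

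The other 2 makorins showed no such difference between inputs. Mkrn1, the family's best known ubiquitin ligase, held 384, 477 and 445 counts in the GFP inputs (55.1, 55.2 and 49.1 CPM) and 350, 387 and 476 in the GFP-Mkrn3 inputs (44.5, 51.0 and 54.8 CPM). The 2 groups overlapped, and the fitted difference was -0.08 (SE 0.128, 95% interval -0.35 to 0.18, edgeR adjusted p = 0.972). Mkrn2 held 391, 515 and 732 counts in the GFP inputs (56.1, 59.5 and 80.7 CPM) and 480, 475 and 555 in the GFP-Mkrn3 inputs (61.0, 62.6 and 63.9 CPM). GFP input 3 stood above the other 2 for Mkrn2, and the fitted difference was -0.07 (SE 0.121, 95% interval -0.32 to 0.18, edgeR adjusted p = 0.975). Without that library it was 0.11, with an adjusted p of 0.886, which ranged from 0.883 to 1.00 over all alternatives.

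IP over input asks which RNA was taken up by the GFP beads in each transfection. With GFP alone, Mkrn3 was at 6.20 ± 2.33 CPM in the input and 6.76 ± 1.01 in the IP (SD, n = 3 each). These groups overlapped, and the difference was 0.18 (SE 0.201, 95% interval -0.24 to 0.60, edgeR adjusted p = 0.490). With GFP-Mkrn3, the level went from 3688 ± 74.2 CPM in the input to 9542 ± 414.5 in the IP (SD, n = 3 each), with no overlap. The IP exceeded the input by 1.37 (log2, SE 0.111, 95% interval 1.14 to 1.60, 2.59-fold, edgeR adjusted p = 8.94e-08), and the Mkrn3 row took 0.971 to 1.05% of all IP counts. A larger rise was found in 4.17% of tested genes. The IP-to-input ratio of Mkrn3 was larger with GFP-Mkrn3 than with GFP by 1.20 (SE 0.230, 95% interval 0.71 to 1.68, 2.29-fold, edgeR adjusted p = 0.00116), and 6.77% of genes had a larger difference. Without GFP-Mkrn3 IP library 2 that difference was 1.23 (adjusted p = 0.000215, with 3.93e-10 to 0.00565 over all alternatives). The GFP value in it rests on 148 input and 150 IP counts. The RNA that rises here is the one the plasmid encodes, and its route onto the beads was not tested.

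Mkrn1 rose from input to IP with GFP alone. The GFP IP libraries held 571, 531 and 376 counts, 73.4, 65.1 and 63.8 CPM, all above the 49.1 to 55.2 CPM of the inputs. The difference was 0.35 (SE 0.127, 1.27-fold, edgeR adjusted p = 0.0291). The call was lost without GFP input 3 (0.29, adjusted p = 0.109), without GFP IP 1 (adjusted p = 0.135) and with library size alone (adjusted p = 0.120), in a range of 0.0107 to 0.135 over all alternatives. Mkrn2 moved the other way: the GFP IP libraries held 336, 319 and 238 counts, 43.2, 39.1 and 40.4 CPM, all below the 56.1 to 80.7 CPM of the inputs. It fell by 0.68 (log2, SE 0.125, edgeR adjusted p = 0.000171, with 4.76e-07 to 0.00172 over all alternatives). So 2 of 3 makorins were called between GFP IP and GFP input, beside 50.3% of all genes.

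With GFP-Mkrn3 neither of these genes was called between IP and input. Mkrn1 held 481, 587 and 477 counts in the GFP-Mkrn3 IP, 43.8, 37.6 and 53.6 CPM, which overlapped the 44.5 to 54.8 CPM of the input (difference -0.16, SE 0.127, 95% interval -0.43 to 0.10, edgeR adjusted p = 0.366). Mkrn2 held 524, 811 and 480 counts, 47.7, 51.9 and 53.9 CPM, all below the 61.0 to 63.9 CPM of the input. That difference was -0.29 (SE 0.121, 95% interval -0.54 to -0.03, edgeR adjusted p = 0.0851), short of the threshold although the groups did not overlap. Here 1 of 3 makorins, the plasmid-encoded Mkrn3, was called, beside 26.7% of all genes.

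The test of the difference between the 2 ratios bears on whether the plasmids differed. For Mkrn1 the IP-to-input ratio was smaller with GFP-Mkrn3 than with GFP by a log2 difference of -0.51 (SE 0.179, 95% interval -0.88 to -0.13, edgeR adjusted p = 0.0451). This call was weak: it was lost in 12 of 20 alternatives, with adjusted p from 0.00304 to 0.192, and without GFP-Mkrn3 IP library 2 the difference was -0.39 (adjusted p = 0.0974). For Mkrn2 the difference was 0.39 (SE 0.174, 95% interval 0.03 to 0.76, edgeR adjusted p = 0.107) and was not called. It passed with library size alone (0.59, adjusted p = 0.0173) and without GFP input 1 (0.49, adjusted p = 0.0447), in a range of 0.0173 to 0.344 over all alternatives. In this test 2 of 3 makorins, Mkrn1 and the plasmid-encoded Mkrn3, were called, beside 24.3% of all genes.

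**Figure D2:**
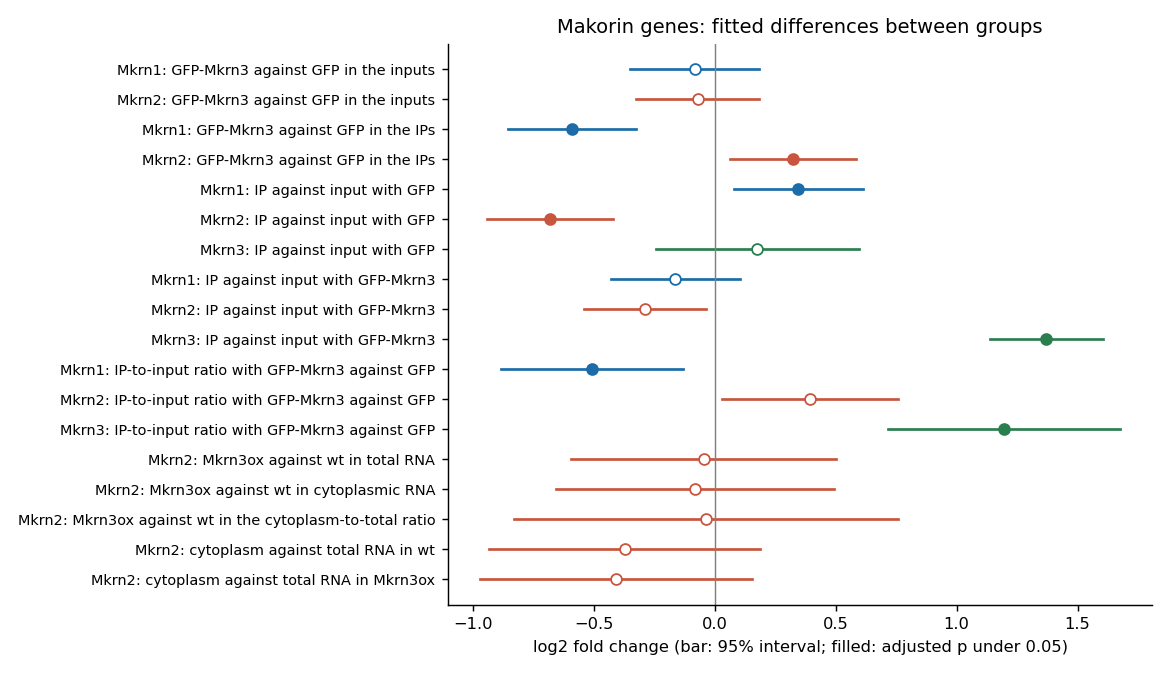
Fitted log2 fold changes of the makorin genes with 95% intervals, from the edgeR fits. Filled points have an adjusted p under 0.05. The Mkrn3 differences between plasmids, 9.25 in the inputs and 10.44 in the IPs, are off the scale and left out. Mkrn1 and Mkrn2 lie on opposite sides of 0 for IP against input with GFP (0.35 and -0.68) and between the IPs (-0.59 and 0.32), and the Mkrn2 intervals of the fractionation all include 0.

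Set side by side, the IPs differed in all 3 makorins, beside 37.6% of all genes. For Mkrn3, which the plasmid carries, the call follows from the design. Mkrn3 was higher in the GFP-Mkrn3 IP by 10.44 (log2, SE 0.175, 1392-fold, edgeR adjusted p = 8.49e-19), again the largest rise of all tested genes. Mkrn1 was lower, with every GFP-Mkrn3 IP library (37.6 to 53.6 CPM) under every GFP IP library (63.8 to 73.4 CPM). It fell by 0.59 (log2, SE 0.126, edgeR adjusted p = 0.00113), and by 0.48 without GFP-Mkrn3 IP library 2 (adjusted p = 0.00446, with 2.65e-05 to 0.0113 over all alternatives). Mkrn2 was higher, with every GFP-Mkrn3 IP library (47.7 to 53.9 CPM) above every GFP IP library (39.1 to 43.2 CPM). Its rise of 0.32 (SE 0.124, 1.25-fold, edgeR adjusted p = 0.0477) lay just inside the threshold, and it was lost in 8 of 14 alternatives, among them each of the 6 that left out a library (0.31 and an adjusted p of 0.0841 without GFP-Mkrn3 IP library 2, with 0.00337 to 0.146 over all alternatives). The comparisons of the IPs, of IP with input and of the ratios share libraries, so they are not separate evidence.

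**Figure D3:**
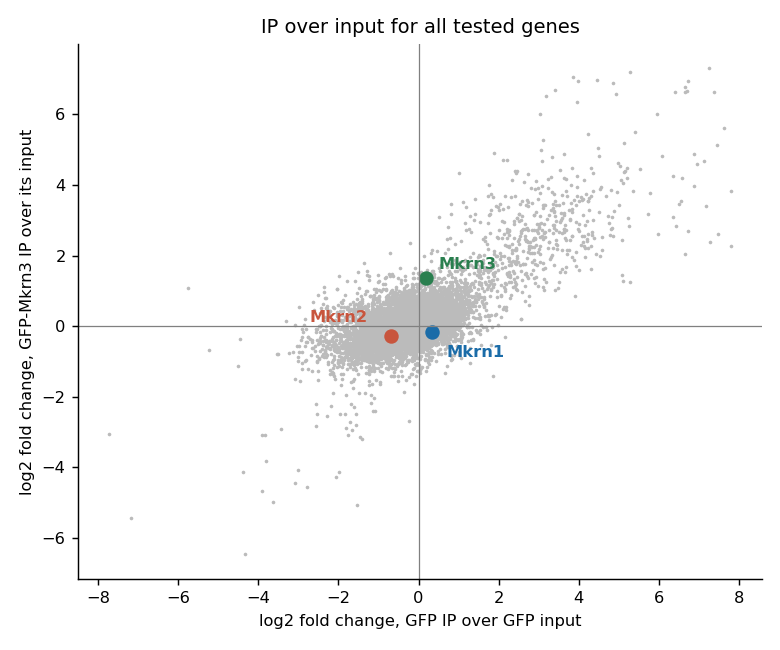
Log2 fold change of IP over input with GFP-Mkrn3 (vertical) against that with GFP (horizontal) for the 13052 genes tested in the RIP (grey), with the makorins marked. Mkrn3 is at 0.18 on the GFP axis and 1.37 on the GFP-Mkrn3 axis, and Mkrn1 and Mkrn2 lie within the mass of genes.

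Ordered by level within the RIP, Mkrn1 was highest in the GFP IP (67.4 ± 5.18 CPM), followed by the GFP input (53.1 ± 3.49), the GFP-Mkrn3 input (50.1 ± 5.22) and the GFP-Mkrn3 IP (45.0 ± 8.07; SD, n = 3 each). Among neighbours in that order only the first pair differed. Mkrn2 was highest in the GFP input (65.5 ± 13.3 CPM), then the GFP-Mkrn3 input (62.5 ± 1.45), the GFP-Mkrn3 IP (51.2 ± 3.20) and the GFP IP (40.9 ± 2.07; SD, n = 3 each), and only the last pair differed. For Mkrn3 the order was GFP-Mkrn3 IP, GFP-Mkrn3 input, GFP IP and GFP input, and every neighbouring pair differed except the last (GFP-Mkrn3 input over GFP IP by 9.07, edgeR adjusted p = 5.70e-18, beside 50.1% of all genes).

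The number of Mkrn1 counts per Mkrn2 count needs no scaling between libraries, and it is compared here only across groups, since transcript lengths were not used. The geometric mean ratio was 0.821 in the GFP input, 1.65 in the GFP IP, 0.799 in the GFP-Mkrn3 input and 0.871 in the GFP-Mkrn3 IP. The 3 GFP IP libraries, at 1.70, 1.66 and 1.58, stood above all 9 other RIP libraries, which ran from 0.608 to 0.994. The GFP IP exceeded its input by a log2 difference of 1.00, and the GFP-Mkrn3 IP was below the GFP IP by a log2 difference of -0.92. In both comparisons the groups did not overlap, and the exact two-sided permutation test gave p = 0.1, the smallest that 3 against 3 libraries allow (adjusted p = 0.4 over 8 comparisons). The inputs differed by -0.04 (exact permutation p = 0.9) and the GFP-Mkrn3 IP and input by 0.12 (exact permutation p = 0.5), with overlap in both.

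**Figure D4:**
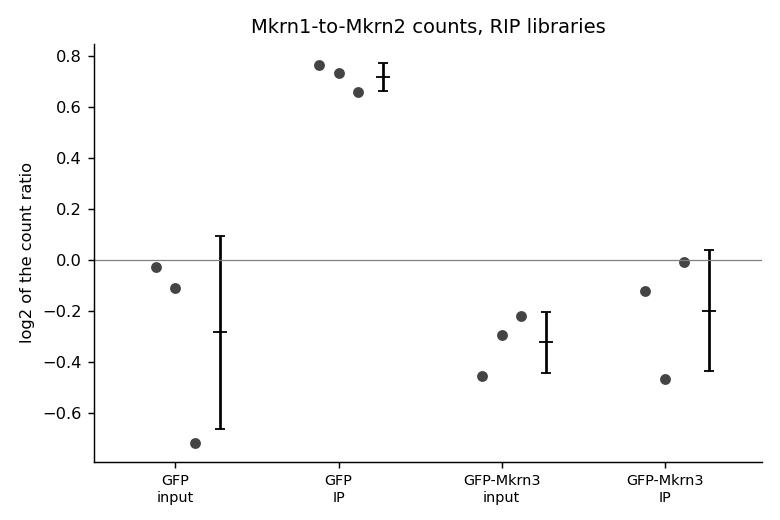
Log2 ratio of Mkrn1 to Mkrn2 counts in the 12 RIP libraries, with 0.5 added to each count. Points are libraries and bars the mean ± SD. The 3 GFP IP libraries stand above 0 and all others below it.

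In the fractionation experiment the Mkrn3 row was almost empty, in the line labelled Mkrn3ox too. All 3 Mkrn3ox total libraries and all 3 wt total libraries held 0 counts, which allows up to 1.77 CPM over the Mkrn3ox total group and 1.57 CPM over the wt total group (3 counts each). The wt cytoplasmic libraries held 1, 0 and 0 counts, and the Mkrn3ox cytoplasmic libraries 1, 0 and 5. The row did not pass the filter on low counts, so no difference between Mkrn3ox and wt was tested in it. Of the 6 counts in Mkrn3ox cytoplasmic RNA, 5 were in 1 library. So the Mkrn3 row does not verify that label, and the direction of each Mkrn3ox comparison rests on the label. The labels name CEL-seq2, which reads the 3' ends of transcripts, for all 24 libraries, while the series' design names it for the fractionation libraries. No source used here states whether the stable construct carries the 3' end that the Mkrn3 row counts, and its part in these values was not tested. All 4 counts of Gm32061, the gene that spans Mkrn3, were in 1 Mkrn3ox cytoplasmic library.

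Mkrn1 was thin in the same libraries. It held 0, 2 and 13 counts in wt total, 0, 2 and 1 in wt cytoplasmic, 9, 3 and 0 in Mkrn3ox total, and 8, 0 and 2 in Mkrn3ox cytoplasmic RNA. Each group held a library at 0, the values of all 4 groups overlapped, and the row did not pass the filter, so no difference was tested. Mean levels were 2.33 to 8.05 CPM with SDs of 92.5 to 134% of the mean. The RIP tables gave 45.0 to 67.4 CPM, but the 2 tables were counted and scaled apart and were not compared by a test.

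Mkrn2 was the 1 makorin whose row passed the filter in the fractionation. The geometric mean ratio of Mkrn1 to Mkrn2 counts was 0.0242 in wt total and 0.0230 in wt cytoplasmic RNA. It was 0.0275 in Mkrn3ox total and 0.0421 in Mkrn3ox cytoplasmic RNA, against 0.799 to 1.65 in the RIP groups. These fractionation ratios rest on few Mkrn1 counts. What the Mkrn2 row counts there is uncertain too, and the cause of the gap was not tested. Wt total RNA held 104, 79 and 143 counts (187, 130 and 192 CPM), and Mkrn3ox total RNA held 91, 80 and 108 (166, 147 and 180 CPM). Wt cytoplasmic RNA held 50, 60 and 50 counts (129, 128 and 137 CPM), and Mkrn3ox cytoplasmic RNA 50, 40 and 69 (125, 102 and 144 CPM). Within each RNA fraction the lines overlapped. Mkrn3ox differed from wt by -0.05 in total RNA (SE 0.263, 95% interval -0.59 to 0.50, edgeR adjusted p = 0.946) and by -0.08 in cytoplasmic RNA (SE 0.277, 95% interval -0.66 to 0.49, adjusted p = 0.903). The cytoplasm-to-total ratio differed between lines by -0.04 (SE 0.382, 95% interval -0.83 to 0.76, edgeR adjusted p = 0.997). The signs of these 3 differences changed with library size alone, as the closing values show. Mkrn2 was called in none of them, beside 7.39%, 10.5% and 0.219% of all genes, and its unadjusted p-values were 0.864, 0.769 and 0.925.

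Cytoplasmic Mkrn2 levels lay under total levels in both lines, but not past the test. The difference was -0.37 in wt (SE 0.270, edgeR adjusted p = 0.567), where wt total library 2 at 130 CPM fell within the cytoplasmic range. In Mkrn3ox it was -0.41 (SE 0.271, edgeR adjusted p = 0.463), with no overlap between 147 to 180 and 102 to 144 CPM. Of all genes 3.78% were called in wt and 4.53% in Mkrn3ox. In order of level Mkrn2 ran from wt total (170 ± 34.3 CPM) through Mkrn3ox total (164 ± 16.2) and wt cytoplasmic (131 ± 4.88) to Mkrn3ox cytoplasmic RNA (124 ± 21.2; SD, n = 3 each), and no neighbours differed (adjusted p = 0.946, 0.498 and 0.903, the middle pair beside 13.2% of all genes).

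**Figure D5:**
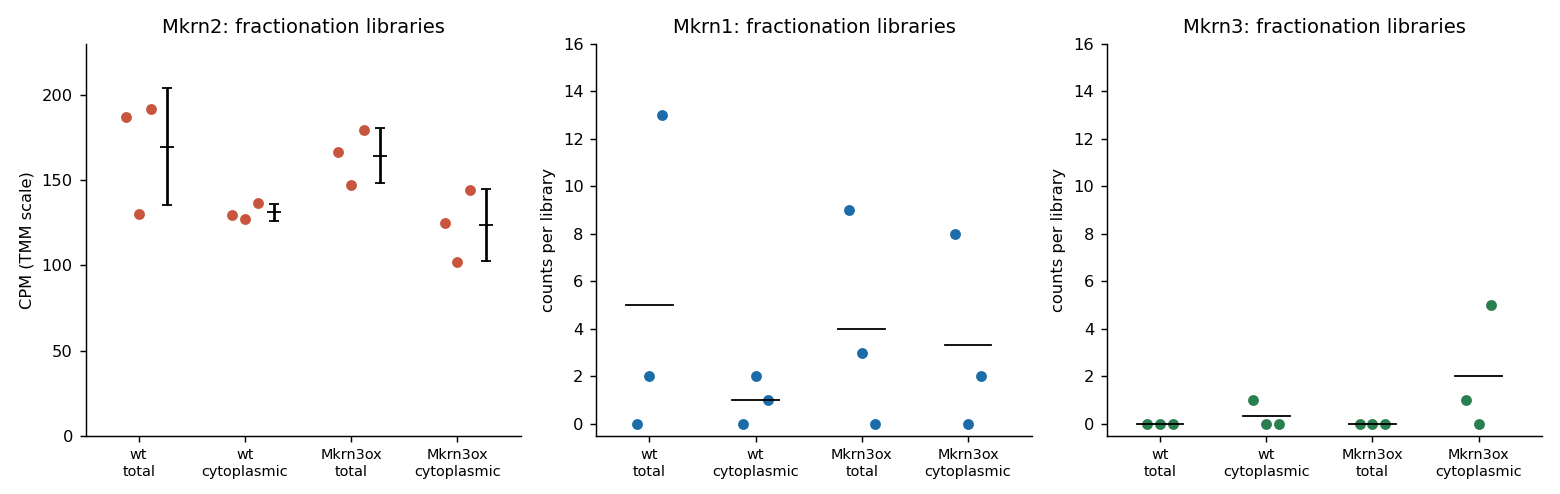
Mkrn2 in CPM on the TMM scale, and counts of Mkrn1 and Mkrn3, in the 12 fractionation libraries. Points are libraries, bars on the Mkrn2 panel the mean ± SD, and lines on the count panels the mean. Mkrn2 lies at 102 to 192 CPM with the lines overlapping in each fraction, and Mkrn3 is at 0 in 9 of 12 libraries.

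Genes whose levels ran most alike were picked by Pearson correlation of log2 CPM over the 12 libraries of an experiment, as a description. These points share 4 groups and their libraries, so the between-group pattern dominates. Over 11307 RIP genes, Mkrn1 was most like Zfp664, Nin and Vsig10 (r from 0.947 to 0.956), all of which were highest in the GFP IP. Mkrn2 was most like Podnl1 (0.969), Nhej1 (0.956) and Snhg20 (0.952), all lowest in the GFP IP. Mkrn3, whose values fall into 2 sets by plasmid, was most like Btg1 (0.890), Ddx59 (0.873) and 9430038I01Rik (0.872). Between the makorins r was -0.469 for Mkrn1 with Mkrn2, -0.669 for Mkrn1 with Mkrn3 and 0.172 for Mkrn2 with Mkrn3. In the fractionation, over 2484 genes, Mkrn2 was most like Nsun5 (0.889), Plpp1 (0.879) and Msto1 (0.856).

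Genes around the makorins were read from 6 lists, 60 genes in all. The lists were chosen with earlier results of these data known, so a share of calls above that of all genes is no separate evidence. Partners and substrates were listed for their proteins, whereas the values are of RNA, so protein binding and ubiquitination were not measured. None of the 45 tested in the RIP was called between the inputs by edgeR (1 had an unadjusted p under 0.05, and DESeq2 called 0). In the difference of IP-to-input ratios 17 of 45 were called, 10 higher and 7 lower with GFP-Mkrn3, which is 37.8% beside 24.3% of all genes. Their median was 0.03, against 0.04 for all genes.

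Of 11 tested RNA-binding partners of makorins, 2 had a larger ratio with GFP-Mkrn3 and 2 a smaller one. Among all 13052 tested genes 24.3% were called here, 1724 with a larger ratio and 1454 with a smaller one. Igf2bp2, which binds and stabilises mRNA, had a difference of 1.08 (edgeR adjusted p = 0.00110), and Pabpc1, the poly(A)-binding protein that MKRN1 is known to bind, one of 0.41 (adjusted p = 0.00951). Both fell from input to IP with GFP, by 0.60 and 0.28, and with GFP-Mkrn3 Igf2bp2 rose by 0.48 (adjusted p = 0.0179) while Pabpc1 (0.13) was not called. Upf1, the helicase of nonsense-mediated decay, was at -0.38, and Larp1, which binds 5' ends of mRNA for ribosomal proteins, at -0.36. Of 11 tested substrates of makorin ubiquitination 3 had a larger ratio and none a smaller one, beside the same 24.3% of all genes called. They were the cell cycle inhibitor Cdkn1a (0.71), the NF-kappaB subunit Rela (0.70) and the methyl-CpG-binding protein gene Mbd3 (0.62). From input to IP with GFP all 3 fell, Cdkn1a by 0.66, Rela by 0.37 and Mbd3 by 1.09. With GFP-Mkrn3 Mbd3 fell by 0.48, and Cdkn1a (0.06, adjusted p = 0.715) and Rela (0.34, adjusted p = 0.0832) were not called. Rela spread widely in the GFP-Mkrn3 IP, at 114.3 ± 27.25 CPM (SD, n = 3). The list medians were 0.03 for partners and 0.19 for substrates.

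Of 11 genes of ribosome quality control, the pathway in which MKRN1 is known to act, 3 had a larger ratio and 2 a smaller one. The calls of this and the following lists stand beside 24.3% of all genes called in this comparison. Rps20, a small-subunit protein, had 1.13, the ribosome scaffold Rack1 had 0.99, the collision sensor Zfp598 had 0.68 and Nemf, which binds stalled large subunits, had -0.59, and the median was -0.20. Rps20 was lower in the IP than in the input with both plasmids, by a log2 difference of -1.89 with GFP and -0.75 with GFP-Mkrn3. Rack1 and Zfp598 fell with GFP, by 0.87 and 0.75, and were not called with GFP-Mkrn3 (0.12 and -0.07). Rack1 spread widely in the GFP-Mkrn3 IP, at 120.0 ± 45.26 CPM (SD, n = 3). Among 6 other C3H and RING proteins only Rc3h1 was called, at -0.46. Of the imprinted neighbours of Mkrn3, Ndn and Ube3a could be tested, and Ube3a, the ubiquitin ligase of Angelman syndrome, had -0.75. Ube3a also spread widely in the GFP-Mkrn3 IP, at 163.7 ± 43.56 CPM (SD, n = 3). Magel2 and Snurf held 0 counts in both tables, and Snrpn 62 and Peg12 8 in the RIP. Of 4 tested puberty and GnRH genes, Gnrh1 had 1.29, the hypothalamic factor Six6 had 0.66 and Pou2f1 had -0.55. Gnrh1 itself was lower in the IP than in the input with both plasmids, at -1.90 with GFP (edgeR adjusted p = 4.21e-11) and -0.61 with GFP-Mkrn3 (adjusted p = 0.000108), so its larger ratio is a smaller loss. Six6 fell by 0.63 with GFP and was not called with GFP-Mkrn3 (0.03). Pou2f1 rose by 0.46 with GFP and was not called with GFP-Mkrn3 (-0.09). Kiss1, Tac2, Tacr3, Lin28b and Dlk1 held 0 counts in both tables.

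In the fractionation 24 of the 60 listed genes were tested. Between lines 2 were called in total RNA (8.33%, beside 7.39% of all genes), Upf1 at -0.72 and Rack1 at 0.85, and 4 in cytoplasmic RNA (16.7%, beside 10.5%). In cytoplasmic RNA the makorin-like C3H protein gene Unkl was at 3176 ± 50.5 CPM in wt and 1268 ± 177.6 in Mkrn3ox (SD, n = 3 each), a fall by 1.33 (log2, SE 0.175, edgeR adjusted p = 2.54e-05). In the RIP groups the Unkl row was at only 33.55 to 36.84 CPM. What the fractionation row counts is therefore uncertain, and the cause of the gap was not tested. Ybx1, which packages mRNA, rose by 1.33 (adjusted p = 0.00881), and Otx2, a homeobox factor that acts on the Gnrh1 promoter, fell by 1.84 (adjusted p = 0.0157). Igf2bp3 was also called higher, but its 3 wt cytoplasmic libraries were at 0 and its Mkrn3ox level was 24.2 ± 29.7 CPM (SD, n = 3). In total RNA Unkl (-0.33), Ybx1 (0.32), Otx2 (0.45) and Igf2bp3 (-0.39) were not called between lines. None of the 24 was called by edgeR in the ratio (5 had an unadjusted p under 0.05, and DESeq2 called 1).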

How the data were processed

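The deposited tables hold raw counts per gene, as whole numbers in 57010 rows, for 12 fractionation and 12 RIP libraries. Per the submitters' processing notes, cutadapt, STAR, HTSeq and the build mm10 were used, and no versions, annotation or strand setting are stated there. Groups came from the labels. Each experiment was fitted apart in R 4.3.3 with edgeR 4.0.16, using TMM scaling and filterByExpr with group means alone, and tested two-sided. A count of 0 was given a floor of 3 counts, which covers counting error only. Count ratios had 0.5 added and were tested by exact permutation (scipy 1.17.1). Positions and neighbours within 5 kb came from RefSeq genes of GRCm38.p6, the assembly of mm10. Named genes are the makorins, rows that overlap them or share their name (some are not reported here), the 3 genes most alike (mean count 20 or above), up to 4 called genes of each list per comparison, fewer where space did not allow, and list genes at or near 0. The makorins and lists were chosen with earlier results of these data known. Alternatives were DESeq2 1.42.0 size factors or test, library size alone, no filter or a mean of 20 counts, only the groups compared, replicate blocks, leaving out each library, and leaving out the row of Mkrn3 (RIP) or mt-Nd6 (fractionation). The fits were tested on simulated counts. Protein sequences were not used here.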

Additional observations from a re-analysis of the deposited data

Results flagged for a closer look

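The IP-to-input differences between the plasmids stood out because the test of the difference itself passed. For Mkrn3 the ratio was larger with GFP-Mkrn3 than with GFP by 1.20 (log2, edgeR adjusted p = 0.00116), with every GFP-Mkrn3 IP library above every GFP-Mkrn3 input. For Mkrn1 the difference was -0.51 (edgeR adjusted p = 0.0451), and 12 of 20 alternatives lost this call. No cause was tested for either.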

How the results depend on the processing

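The calls on Mkrn3 (inputs, IPs, IP over input with GFP-Mkrn3, and the ratio difference), the Mkrn1 fall between the IPs and the Mkrn2 fall from input to IP with GFP held under every alternative run. Library size alone moved the median of all genes by up to 0.375 (cytoplasmic RNA), and turned the Mkrn2 difference between lines to 0.067 in total RNA, 0.26 in cytoplasmic RNA and 0.20 in the ratio. A filter at a mean of 20 counts turned the last 2 to 0.028 and 0.084. Library size alone gave 0.24 for Mkrn1 from input to IP with GFP, -0.32 for the Mkrn1 ratio difference and 0.59 for that of Mkrn2. The Mkrn1 ratio difference was -0.49 with no filter. The Mkrn2 rise between the IPs was 0.30 with DESeq2 size factors and 0.30 with the DESeq2 test. The cause of these changes was not tested.

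Leaving out 1 library in turn gave these ranges for Mkrn2: -0.21 to 0.047 between lines in total RNA, -0.22 to 0.032 in cytoplasmic RNA, -0.17 to 0.11 in the ratio, -0.17 to 0.11 between inputs, 0.28 to 0.37 between IPs and 0.21 to 0.49 for the ratio difference. For Mkrn1 they were 0.27 to 0.38 from input to IP with GFP and -0.65 to -0.39 for the ratio difference. For Mkrn3 from input to IP with GFP it was -0.077 to 0.45, the low end without GFP input 3. Counts of called genes ran from 234 to 306 in total RNA (372 with all libraries), from 8 to 35 in the line ratio (11), from 125 to 153 for cytoplasm against total in Mkrn3ox (228) and from 1 to 3 between inputs (2). The line ratio had 43 called genes with no filter and 50 with DESeq2. Between inputs there were 34 with no filter, 4 with only those groups fitted, 6 with DESeq2, and 0 by edgeR without the Mkrn3 row (736 at an unadjusted p under 0.05).

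The replicate numbers were checked for pairing: deviations of same-numbered libraries correlated at -0.146 to 0.238 in the RIP and -0.067 to 0.039 in the fractionation. The highest value was between GFP input 2 and GFP-Mkrn3 IP 2, where other numbers reached at most 0.031. Deviations from a mean of 3 libraries are tied to each other, so this check cannot exclude pairing. With the replicate block across groups the Mkrn1 ratio difference was -0.51, the Mkrn2 rise between IPs 0.32 and the Mkrn3 ratio difference 1.20, and the block changed no call on a makorin. Not every library correlated best with its own number. Low counts limit the fractionation most: Mkrn1 and Mkrn3 had too few for a test, and the part of depth in this was not tested. Group means of Mkrn1 ran from 2.33 to 8.05 CPM there and from 45.0 to 67.4 in the RIP. Those of Mkrn2 ran from 124 to 170 CPM there and from 40.9 to 65.5 in the RIP.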
